A study of Homo sapiens with 35 samples.

Results

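The secreted Wnt antagonists DKK1, DKK3, DKK4, SFRP1, SFRP2, FRZB and NOTUM were followed through the differentiation of H1, an established line of human embryonic stem cells, into definitive endoderm. The genes were chosen by name, with earlier results of these data known, so counts of members called beside the share of all genes are descriptions. Genes were kept if present both in the bulk table and in the single-cell matrices. This held for 7 of 7 genes, among 16103 bulk genes and 33539 single-cell features. RNA was sequenced from bulk cultures and from sorted single cells. The standard induction gave 100 ng/ml Activin A (AA), which signals through the same receptors as the embryonic ligand Nodal, together with 3 µM CHIR99021 (CHIR), a GSK3 inhibitor that switches on canonical Wnt signalling, on day 1, and Activin A without CHIR afterwards. Compounds known here only by the code names BRD and JNJ replaced Activin A in other arms, at doses that the labels do not state.

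Unsorted bulk cells were collected at 6 h untreated, with CHIR, AA+CHIR, BRD+CHIR, JNJ+CHIR or BRD without CHIR, and at 24 h with the same treatments except the untreated pair, which was not analysed here. Bulk cells sorted as definitive endoderm were collected at 72 h after AA+CHIR followed by AA, BRD+CHIR followed by BRD, JNJ+CHIR followed by JNJ, or BRD with LoAA (an addition that the labels do not explain) and CHIR followed by BRD with LoAA; these groups are called 72 h AA, BRD, JNJ and BRD+LoAA. Each of the 15 bulk groups had 2 libraries. Nothing in the labels says that they came from separate cultures, so p-values measure the spread between libraries, which may be technical. The 3 single-cell libraries, 1 per condition, held cells at 36 h and at 72 h of the AA induction, and at 72 h of a commercial mesoderm induction (STEMdiff). All bulk and single cells descend from the same line, and the 72 h bulk and the single-cell samples passed a sort whose gates the labels do not give. The single-cell features include an mNeonGreen transgene, with 8192 UMIs in the 72 h endoderm library, 10 at 36 h and 0 in mesoderm. At least the endoderm cells were therefore not unmodified H1.

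Wnt ligands are lipid-modified proteins that bring Frizzled receptors and the co-receptors LRP5 and LRP6 together, which stabilises beta-catenin and lets it act with TCF and LEF factors on DNA. DKK1 and DKK4 are secreted proteins that bind LRP5 and LRP6 and remove them from the complex, whereas DKK3 is a divergent member of the Dickkopf family with a debated role in this pathway. SFRP1, SFRP2 and FRZB carry a Frizzled-like domain and bind Wnt ligands outside the cell, and NOTUM is a carboxylesterase that strips the lipid from Wnt ligands. Several of these genes are themselves induced by Wnt signalling as feedback inhibitors, and DKK1 marks the anterior streak and the endoderm that leaves it in vertebrate embryos. CHIR acts inside the cell, below LRP5 and LRP6, so antagonists outside the cell do not block it directly.

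The RefSeq promoter table (GRCh38.p14) had an entry for 3 of 7 members, DKK1, SFRP2 and FRZB. The FRZB window held 0 bases before the annotated first exon, so only the DKK1 and SFRP2 sequences are shown. The bases before the annotated first exon are given 5′ to 3′ on the strand of each gene, for DKK1 at chr10:52314031-52314280 (plus strand, 250 bases) and for SFRP2 at chr4:153789121-153789333 (minus strand, 213 bases). Capitals mark the letters CTTTGA, the core bound by TCF and LEF factors, in DKK1 and the letters CAGAC, a core bound by SMAD proteins, in SFRP2.
DKK1: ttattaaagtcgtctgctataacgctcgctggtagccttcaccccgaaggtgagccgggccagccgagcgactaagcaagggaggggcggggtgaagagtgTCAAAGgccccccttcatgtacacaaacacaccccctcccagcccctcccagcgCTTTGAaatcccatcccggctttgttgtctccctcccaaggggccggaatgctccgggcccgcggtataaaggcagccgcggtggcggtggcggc
SFRP2: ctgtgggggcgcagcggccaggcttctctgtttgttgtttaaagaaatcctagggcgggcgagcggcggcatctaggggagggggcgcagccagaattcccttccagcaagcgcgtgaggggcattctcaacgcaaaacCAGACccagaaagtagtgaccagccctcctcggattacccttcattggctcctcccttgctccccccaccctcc
On both strands, the DKK1 sequence held CTTTGA at 2 places, at bases 102 to 107 on the minus strand and at bases 156 to 161 on the plus strand, counted from 1 at the 5′ end. Among 35116 promoter windows of 250 bases in the table, 11.2% held CTTTGA and 0.98% held it at least 2 times. The SFRP2 sequence held none. The letters CAGAC (a SMAD core) were found 1 time in each gene, at bases 12 to 16 of DKK1 on the minus strand and at bases 140 to 144 of SFRP2 on the plus strand, against 38% of all windows with at least 1 match. The TATA box letters TATAAA stood at bases 221 to 226 of DKK1, against 10.7% of all windows. The motifs do not overlap each other here, and these matches describe letters, not bound sites.

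In GENCODE 29 on GRCh38, DKK1 lies on chromosome 10 (52314296 to 52318042, plus strand), DKK3 on chromosome 11 (11963106 to 12009769, minus strand) and DKK4 on chromosome 8 (42374068 to 42377232, minus strand). SFRP1 is also on chromosome 8 (41261958 to 41309497, minus strand), SFRP2 on chromosome 4 (153780592 to 153789120, minus strand), FRZB on chromosome 2 (182833275 to 182867162, minus strand) and NOTUM on chromosome 17 (81952507 to 81961840, minus strand). All are protein-coding, and the values below are per gene, over its exons. An antisense gene, PRKG1-AS1, overlaps DKK1 and has no row in the bulk table. The libraries were stranded, but whether the counting used the strand is not given in the sources used here.

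Bulk libraries held 10.8 to 17.2 M counts at 6 h, 13.0 to 29.6 M at 24 h, 4.57 to 7.59 M at 72 h, and 6.75 to 49.5 M in the BRD-alone groups. Levels are CPM (counts per M of library total) scaled within each time point. The 6 h, 24 h and 72 h libraries carry different library series numbers in their titles, and the BRD-alone libraries carry that of the 72 h libraries, so times and BRD alone cannot be told apart from library series and their levels are given without a test. In bulk RNA, fewer cells that express a gene and less RNA per cell cannot be told apart. Primitive streak markers (7 genes: TBXT, MIXL1, EOMES, GSC, FGF8, NODAL and EVX1) summed to 24.5 to 27.4 CPM in untreated cells at 6 h and to 2563.3 to 2702.9 CPM with AA+CHIR at 24 h. Definitive endoderm markers (9 genes, SOX17 and FOXA2 among them) summed to 5984.8 to 6527.7 CPM in the sorted 72 h AA cells, with none at 0, so the label of those cells is matched by their markers. The unsorted samples that the labels also call endoderm had SOX17 at 0 counts in every 6 h group but BRD alone and in the 24 h CHIR, BRD+CHIR and JNJ+CHIR groups.

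**Figure D1:**
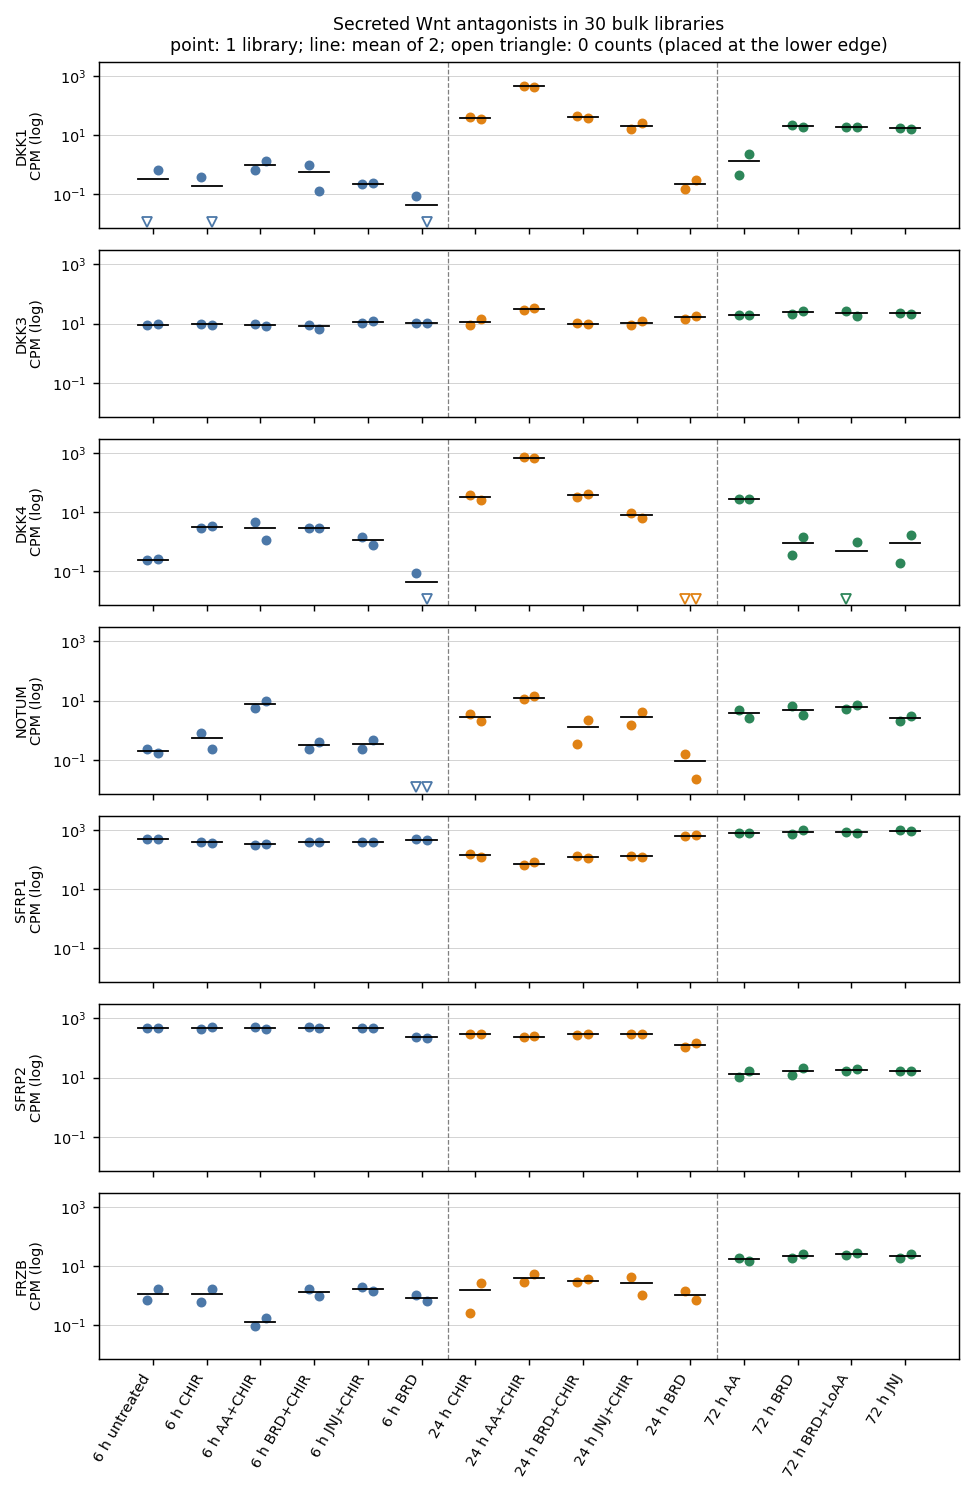
CPM of each of the 7 antagonists on a log axis in 30 bulk libraries, by group. Points are libraries, lines are means of 2, and open triangles at the lower edge are libraries with 0 counts. DKK1 and DKK4 are highest in the 24 h AA+CHIR libraries (439 to 447 and 676 to 706 CPM), SFRP2 is lowest at 72 h, and FRZB is highest at 72 h.

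Because longer genes collect more counts, levels of different members were compared as CPM per kilobase (kb) of exon. The shares depend on this division, with exon lengths from 0.894 kb for DKK4 to 5.059 kb for DKK3. In plain CPM, SFRP1 (490) was above SFRP2 (467) in untreated cells. DKK4 (691) was still above DKK1 (443) with AA+CHIR at 24 h. At 6 h, SFRP2 and SFRP1 together made up nearly all of the summed level of the 7 genes. In untreated cells SFRP2 gave 68.5% and SFRP1 30.7% of a sum of 336 CPM per kb, and in the other 6 h groups with CHIR SFRP2 gave 72.1% to 75.1%. At 24 h with CHIR the ligand binders still led, with SFRP2 at 63.1% and SFRP1 at 12.4%, but DKK4 had reached 15.2% and DKK1 7.64%. With AA+CHIR at 24 h the order was turned over. DKK4 alone gave 69.0% and DKK1 17.9% of the sum, against 10.7% for SFRP2 and 1.36% for SFRP1, and the sum itself was 1120.5 CPM per kb, against 232 with CHIR. With BRD alone at 24 h SFRP1 led, at 66.9%. At 72 h SFRP1 led in all 4 groups with 76.8% to 87.2%. DKK4 was the next with AA (14.8%), whereas DKK1 (3.35% to 4.52%), SFRP2 (3.65% to 4.38%) and FRZB (3.05% to 3.89%) came next with the compounds, at levels close to each other.

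**Figure D2:**
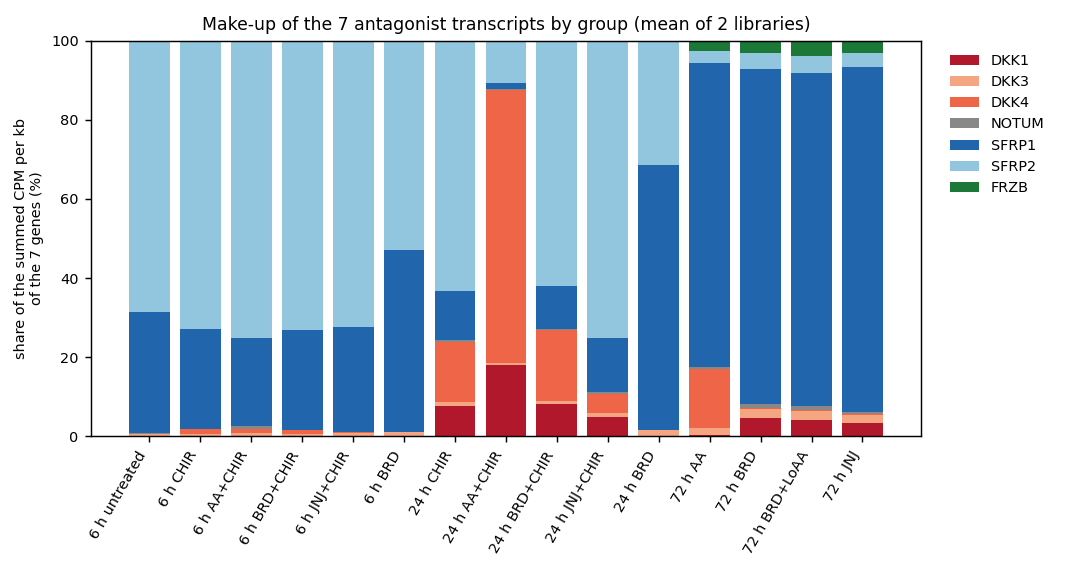
Mean share of each gene in the summed CPM per kb of the 7 antagonists, in percent, for each of the 15 bulk groups (2 libraries each). SFRP2 fills 68.5% of the bar in untreated cells, DKK4 fills 69.0% with AA+CHIR at 24 h, and SFRP1 fills 76.8% to 87.2% at 72 h.

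CHIR alone at 6 h was compared with untreated cells, which asks what Wnt activation changes first. DKK4 rose and SFRP1 fell, 2 of 7 members, against 2.96% of the 14874 genes tested. DKK4 was at 3.03 and 3.33 CPM with CHIR and at 0.237 and 0.258 CPM (3 counts in each library) without it. The CHIR libraries were both above the untreated ones, with a log2 difference of 3.64 ± 0.85 (SE) and an adjusted p of 0.0221 (edgeR quasi-likelihood test, n = 2 per group). Leaving out any of the 4 libraries took the adjusted p to between 0.0827 and 0.173. SFRP1, which binds Wnt ligands, was at 398 and 372 CPM with CHIR and at 498 and 482 CPM without it, a fall of modest size with no overlap. It fell by 0.35 on the log2 scale (SE 0.07, edgeR adjusted p = 0.0121), and the adjusted p was 0.189 without CHIR replicate 2, 0.118 without untreated replicate 1 and 0.352 in a fit over all 30 libraries. SFRP2 was at 447 and 494 CPM with CHIR and at 480 and 454 CPM without it, so its groups overlapped, and the 95% interval of its log2 difference was -0.16 to 0.18. DKK1 was barely detected, with 5 and 0 counts with CHIR and 0 and 8 counts without it.

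Some other genes of the pathway passed the test at this time, and most did not. Of 16 Wnt target genes tested, 8 rose with CHIR and 0 fell, with a median log2 difference of 1.15 against 0.00 over all genes. Among them SP5 rose from 5.50 to 71.4 CPM, AXIN2 from 29.4 to 75.1, CCND1 from 194 to 316 and NKD1 from 13.9 to 27.6 CPM (edgeR adjusted p = 5.74e-09, 1.06e-06, 1.75e-05 and 0.00198). AXIN2 and NKD1 are inhibitors inside the cell. Among 11 other antagonists, APCDD1, a membrane inhibitor, rose (8.91 to 17.4 CPM, edgeR adjusted p = 0.0245) and SHISA2, which holds back Frizzled receptors in the endoplasmic reticulum, fell (33.1 to 7.77 CPM, adjusted p = 0.000154). Among 9 genes for ligands and their export, WNT3 and WNT5B rose, and among 17 receptors and partners only FZD10 passed the test, at 2.84 against 0.247 CPM.

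Adding Activin A to CHIR for 6 h raised NOTUM, 1 of 7 members, against 1.49% of all genes tested. NOTUM was at 5.73 and 10.1 CPM with AA+CHIR and at 0.834 and 0.227 CPM with CHIR, and every AA+CHIR library was above every library of the other 6 h groups. The log2 difference was 3.87 ± 0.83 (SE, edgeR adjusted p = 0.0232, n = 2 per group), and without any of the 4 libraries the adjusted p lay between 0.0821 and 0.253. DKK4 did not follow NOTUM here. It was at 4.60 and 1.11 CPM with AA+CHIR, on both sides of the CHIR libraries, with a 95% interval of the log2 difference from -1.60 to 1.27. FRZB was at 0.0940 and 0.171 CPM (1 and 2 counts) with AA+CHIR against 0.606 and 1.67 CPM, without overlap, and did not pass the test (edgeR adjusted p = 0.260). SFRP1 was at 319 and 338 CPM, below both CHIR libraries, and did not pass either (edgeR adjusted p = 0.201). Among other antagonists, CER1, which binds Nodal, BMP and Wnt ligands, rose from 6.18 to 40.1 CPM (edgeR adjusted p = 4.28e-05), the only call among 11.

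No member was called when BRD or JNJ was added to CHIR for 6 h. With edgeR 0 of 7 members were called for BRD+CHIR against CHIR (0% of all genes called, 452 with an unadjusted p under 0.05 and 1 called by DESeq2), for JNJ+CHIR against CHIR (0.0202% of genes called) and for BRD+CHIR against JNJ+CHIR (0.0202% called). DESeq2 also called 0 members in each. At an unadjusted p under 0.05, 1 member stood out in these 3 comparisons, DKK3 between the compounds (9.25 and 6.87 CPM with BRD+CHIR against 10.5 and 12.5 with JNJ+CHIR, unadjusted p = 0.0451). The intervals are narrow for SFRP1 (-0.13 to 0.18 for BRD+CHIR and -0.10 to 0.21 for JNJ+CHIR, log2) and wide for DKK1 (-1.58 to 4.73 and -3.16 to 3.73). DKK4 was at 1.44 and 0.799 CPM with JNJ+CHIR, below both CHIR libraries and both BRD+CHIR libraries (2.93 and 2.96 CPM), with intervals of -3.00 to 0.01 against CHIR and -0.11 to 2.88 for BRD+CHIR against JNJ+CHIR.

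At 24 h the question is what Activin A adds to a day of Wnt activation. AA+CHIR raised DKK1, DKK4 and DKK3 and lowered SFRP1 relative to CHIR, 4 of 7 members, against 2.86% of 15586 genes tested. The median log2 difference of the 7 members was 1.45, against 0.00 over all genes. DKK1 was at 447 and 439 CPM with AA+CHIR (12374 and 11239 counts) and at 41.8 and 36.4 CPM with CHIR. Its libraries lay far apart between the groups and close together within them, an 11.3-fold difference (log2 3.50 ± 0.18, SE, edgeR adjusted p = 6.52e-09, n = 2 per group). DKK4 was at 706 and 676 CPM with AA+CHIR and at 38.4 and 25.1 CPM with CHIR. This was the largest difference among the members in this comparison, 21.8-fold (log2 4.44 ± 0.22, edgeR adjusted p = 9.45e-09). Both co-receptor antagonists kept their call under every alternative tried for this comparison.

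DKK3, the divergent Dickkopf, was at 29.5 and 34.5 CPM with AA+CHIR and at 9.01 and 14.4 CPM with CHIR. It rose 2.74-fold without overlap (log2 1.45 ± 0.32, edgeR adjusted p = 0.0184), and the adjusted p was 0.0622 without AA+CHIR replicate 1, 0.162 without AA+CHIR replicate 2 and 0.215 without CHIR replicate 1. SFRP1 went the other way, at 64.2 and 80.6 CPM against 149 and 125 CPM. It fell by 0.92 on the log2 scale (SE 0.13, edgeR adjusted p = 0.000672). SFRP2 was at 233 and 253 CPM against 292 and 301 CPM, lower in both libraries, and did not pass the test (log2 -0.28 ± 0.12, edgeR adjusted p = 0.313). NOTUM was at 11.2 and 14.0 CPM against 3.56 and 2.03 CPM, also without overlap and without a call (log2 2.17 ± 0.91, edgeR adjusted p = 0.300). FRZB, at 2.85 and 5.35 CPM against 0.266 and 2.79 CPM, did not overlap between groups either, and its interval of -0.99 to 3.83 includes 0.

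Streak markers in the same libraries summed to 1398.9 to 1443.8 CPM with CHIR and to 2563.3 to 2702.9 CPM with AA+CHIR. Endoderm markers summed to 236 to 276 CPM and to 1515.5 to 1666.8 CPM, of which CER1 made 94.2 and 1255.4 CPM on average, whereas FOXA2 was at 70.4 and 18.4 CPM. Their part in the differences of the antagonists was not tested. Other genes of the pathway also passed the test. Of 11 other antagonists CER1 rose from 94.2 to 1255.4 CPM and IGFBP4, an insulin-like growth factor binding protein that also binds LRP6, from 64.3 to 121 CPM (edgeR adjusted p = 3.33e-09 and 0.00402), and 0 fell. Of 17 Wnt targets TBXT rose from 107 to 212 CPM and TCF7 from 33.9 to 69.2 CPM (edgeR adjusted p = 0.000822 and 0.00991), and 0 fell, with a median of 0.20 for the list. WNT5A rose from 4.03 to 48.2 CPM and WNT3 from 58.8 to 111 CPM (adjusted p = 0.000151 and 0.00584). Of 17 receptors and partners FZD7 rose from 117 to 250 CPM, and FZD3 and the glypican GPC4 fell from 98.6 to 61.4 and from 238 to 169 CPM (edgeR adjusted p = 0.000347, 0.00787 and 0.0245).

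**Figure D3:**
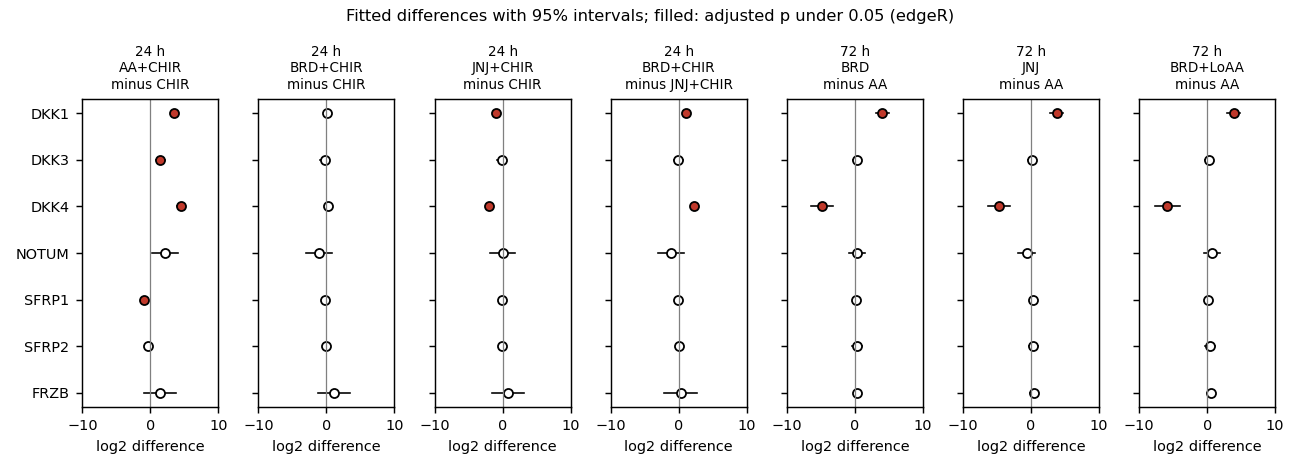
Fitted log2 differences of the 7 antagonists with 95% intervals in 7 comparisons at 24 h and 72 h. Filled points have an adjusted p under 0.05 (edgeR). DKK4 is higher with Activin A in each comparison with it (4.44 at 24 h, -4.86, -4.77 and -5.87 for the compounds minus AA at 72 h), whereas DKK1 lies on the Activin A side at 24 h (3.50) and on the compound side at 72 h (4.05, 3.77 and 3.90).

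The same Activin A effect was set against that at 6 h in a fit over both times, in which the library series of each time cancels. The effect was larger at 24 h for DKK4 and DKK3 and more negative for SFRP1, 3 of 7 members, against 1.90% of 15717 genes tested. The difference of the differences was 4.63 ± 0.50 on the log2 scale for DKK4 (SE, edgeR adjusted p = 1.41e-05). For DKK3 it was 1.55 ± 0.39 (edgeR adjusted p = 0.0428), and the call ended without the BRD-alone libraries (0.0781), without either AA+CHIR library or CHIR replicate 1 at 24 h, and without either AA+CHIR or CHIR library at 6 h (0.05 to 0.159). For SFRP1 it was -0.69 ± 0.15 (edgeR adjusted p = 0.0169), which ended without 24 h AA+CHIR replicate 1 (0.0856), 6 h CHIR replicate 2 (0.103), 24 h CHIR replicate 1 (0.0960) or 6 h AA+CHIR replicate 2 (0.0750). DKK1 did not pass the test (1.11 ± 1.25, edgeR adjusted p = 0.792), with 5 and 0 counts with CHIR at 6 h.

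At 24 h no member was called between BRD+CHIR and CHIR, whereas DKK1 and DKK4 were lower with JNJ+CHIR than with CHIR. In BRD+CHIR against CHIR 0 of 7 members and 0% of all genes were called with edgeR (738 genes and 0 members had an unadjusted p under 0.05, and DESeq2 called 17 genes and 0 members). DKK1 was at 44.2 and 39.0 CPM and DKK4 at 32.7 and 41.3 CPM with BRD+CHIR, overlapping the CHIR libraries, with intervals of -0.27 to 0.45 and -0.21 to 0.64 on the log2 scale. In JNJ+CHIR against CHIR 2 of 7 members fell, against 0.154% of all genes called in either direction. DKK4 was at 9.71 and 6.38 CPM, below both CHIR libraries, and fell by 1.98 (SE 0.21, edgeR adjusted p = 0.000391), a call that no alternative ended. DKK1 was at 16.6 and 24.9 CPM, also below both, and fell by 0.91 (SE 0.17, edgeR adjusted p = 0.0436). That call ended, among other fits, in a fit over all 30 libraries (0.114) and without CHIR replicate 1 (0.386), CHIR replicate 2 (0.131) or JNJ+CHIR replicate 1 (0.158). The other 5 members did not pass the test, and SFRP1 and SFRP2 had intervals of -0.40 to 0.16 and -0.28 to 0.24. CER1 was the only gene of the other lists called in this comparison, at 30.3 against 94.2 CPM (log2 -1.64, edgeR adjusted p = 0.000279).

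The compounds were also compared with each other at 24 h, with 7 members tested. DKK4 was higher with BRD+CHIR than with JNJ+CHIR by 2.19 ± 0.22 on the log2 scale (4.57-fold, edgeR adjusted p = 0.000362) and DKK1 by 1.01 ± 0.17 (2.01-fold, edgeR adjusted p = 0.0204), 2 of 7 members, against 0.180% of all genes. The DKK4 call held in every alternative. For DKK1 the adjusted p was 0.198 without BRD+CHIR replicate 1, 0.0902 without BRD+CHIR replicate 2, 0.120 without JNJ+CHIR replicate 1 and 0.0861 in the fit over all libraries. For the other 5 members no difference was shown, with intervals from -0.35 to 0.22 for SFRP1 and -0.27 to 0.25 for SFRP2 to -3.05 to 0.83 for NOTUM. The doses are not stated, so these values compare the arms as they were run.

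Against AA+CHIR at 24 h, the same 4 members were called in each compound arm, DKK1, DKK3 and DKK4 lower and SFRP1 higher, against 2.75% of genes called for BRD+CHIR and 4.67% for JNJ+CHIR. These comparisons share the AA+CHIR libraries. The log2 difference of DKK1 was -3.41 ± 0.18 with BRD+CHIR and -4.42 ± 0.19 with JNJ+CHIR (SE, edgeR adjusted p = 9.99e-09 and 3.86e-10). That of DKK4 was -4.23 ± 0.22 and -6.42 ± 0.25 (edgeR adjusted p = 1.81e-08 and 3.75e-10), the latter from a mean of 8.04 against 691 CPM. SFRP1 was higher by 0.74 and 0.80 (SE 0.14 and 0.13, edgeR adjusted p = 0.00498 and 0.00170), and the log2 difference of DKK3 was -1.69 and -1.60 (SE 0.32 in both, adjusted p = 0.00708 and 0.00674). For BRD+CHIR the DKK3 call ended without AA+CHIR replicate 2 (edgeR adjusted p = 0.0802), BRD+CHIR replicate 1 (0.0707) or BRD+CHIR replicate 2 (0.0888), and the SFRP1 call without AA+CHIR replicate 1 (0.0990) or BRD+CHIR replicate 1 (0.0800). For JNJ+CHIR the DKK3 call ended without AA+CHIR replicate 2 (0.0712) or JNJ+CHIR replicate 1 (0.0579). NOTUM was at 0.334 and 2.31 CPM with BRD+CHIR against 11.2 and 14.0 CPM (log2 -3.29 ± 0.97, edgeR adjusted p = 0.0968), and was called by DESeq2 (0.0110), without the BRD-alone libraries (0.0405) and in the fit over all libraries (0.0149).

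BRD without CHIR, in libraries of another series, had DKK4, DKK1 and NOTUM at or near 0. At 24 h DKK4 had 0 counts in both libraries, where 3 counts over the group would be 0.0580 CPM, DKK1 was at 0.156 and 0.309 CPM, and NOTUM had 1 count in each. SFRP1 was at 598 and 665 CPM, above all 24 h libraries with CHIR (64.2 to 149 CPM), and SFRP2 at 111 and 142 CPM, below all of them (233 to 306 CPM). Streak markers summed to 1.87 to 2.50 CPM in these cells, with EVX1 at 0. At 6 h NOTUM had 0 counts in both BRD-alone libraries and DKK4 had 1 and 0 counts. Untreated cells at 6 h, also without CHIR, had means of 0.344 CPM for DKK1, 0.247 for DKK4 and 0.204 for NOTUM. SFRP1 and SFRP2 were at 490 and 467 CPM in those cells and at 459 and 225 CPM with BRD alone at 6 h.

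At 72 h, in sorted endoderm, DKK1 and DKK4 stood on opposite sides. Relative to AA, DKK1 was higher and DKK4 lower with BRD, JNJ and BRD+LoAA, 2 of 7 members in each comparison. Here the whole transcriptome differed as often, with 21.3%, 18.5% and 19.4% of 13889 genes called, so the members' count is near the background. DKK1 was at 0.439 and 2.34 CPM with AA (3 and 10 counts), at 21.5 and 19.5 CPM with BRD, at 18.0 and 15.9 CPM with JNJ and at 18.5 and 18.4 CPM with BRD+LoAA. All 6 compound libraries lay above both AA libraries, and the log2 differences were 4.05 ± 0.46, 3.77 ± 0.46 and 3.90 ± 0.46 (SE, edgeR adjusted p = 4.41e-05, 9.60e-05 and 7.19e-05, n = 2 per group). DKK4 was at 27.4 and 28.8 CPM with AA, at 0.346 and 1.44 CPM with BRD, at 0.191 and 1.67 CPM with JNJ and at 0.00 and 0.999 CPM with BRD+LoAA. The compound libraries had 0 to 12 counts each, against 187 and 123 counts with AA. The log2 differences were -4.86 ± 0.75, -4.77 ± 0.75 and -5.87 ± 0.85 (SE, edgeR adjusted p = 0.000474, 0.000615 and 0.000333). These 3 comparisons share the AA libraries, and no alternative ended a DKK1 or DKK4 call in them.

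The remaining members did not pass the test at 72 h. SFRP1 was at 754 and 799 CPM with AA and between 719 and 994 CPM in the compound libraries, and its intervals against AA ran from -0.24 to 0.40 for BRD+LoAA, from -0.18 to 0.46 for BRD and from -0.03 to 0.61 for JNJ. SFRP2 was at 10.5 and 16.6 CPM with AA and at 11.8 to 21.7 CPM with the compounds, with overlap. FRZB, a Wnt binder of cartilage and mesoderm, was at 18.4 and 15.2 CPM with AA and at 18.4 to 26.8 CPM with the compounds, and its smallest adjusted p was 0.132 (edgeR, BRD+LoAA). DKK3 lay between 18.0 and 27.4 CPM in all 8 libraries and NOTUM between 2.10 and 6.99 CPM. Between the compound arms 0 of 7 members were called in BRD+LoAA against BRD or in BRD against JNJ (0% of all genes called with edgeR, with 740 and 390 genes and 0 members at an unadjusted p under 0.05, and 5 and 4 genes and 0 members called by DESeq2). The intervals for BRD minus JNJ were -0.44 to 0.99 for DKK1 and -2.09 to 1.90 for DKK4. At 24 h the DKK4 interval for BRD+CHIR minus JNJ+CHIR was 1.73 to 2.65, which overlaps the 72 h interval. The 72 h interval rests on 1 to 12 counts per library. The change between times was not tested.

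Marker sums of the 72 h groups differed as well. Endoderm markers summed to 1455.1 to 1874.4 CPM with the compounds (5984.8 to 6527.7 with AA, of which CER1 made 4440.3 on average). CER1 was at 74.2 to 106 CPM in group means with the compounds. In group means, SOX17, CXCR4, GATA4, GATA6 and LHX1 were also lower than with AA. FOXA2 (55.6 to 63.5 against 18.8 CPM), KIT (497 to 626 against 306) and HHEX (76.6 to 107 against 69.2) were higher. Mitosis markers (5 genes) summed to 978 to 1294.1 CPM with the compounds (2080.2 to 2115.2 with AA). Amnion and trophoblast markers (6 genes) summed to 131 to 175 CPM (34.9 to 44.7 with AA), with CDX2 at 0 in the compound groups. Of that last sum GATA3 made 135 to 153 CPM in group means with the compounds and 6.18 with AA, whereas GABRP was at 12.4 CPM or less with the compounds and 32.8 CPM with AA. Their part in the DKK1 and DKK4 differences was not tested. The wider pathway moved in both directions at 72 h. Of 16 Wnt targets tested, 6 rose and 4 fell in each compound arm relative to AA. With BRD, CCND1 rose from 64.0 to 219 CPM, SP5 from 4.45 to 53.0 CPM and TNFRSF19 from 0.850 to 14.2 CPM, and MYC fell from 34.8 to 7.39 CPM (edgeR adjusted p = 2.02e-06, 9.52e-06, 6.26e-05 and 4.74e-05). Of 8 other antagonists 3 rose and 1 fell in each arm. With BRD, SHISA3 rose from 24.4 to 121 CPM and SHISA2 from 418 to 792 CPM, SFRP5 was at 3.59 CPM against 0 counts in both AA libraries, and CER1 fell to 76.3 CPM (edgeR adjusted p = 5.53e-06, 0.000226, 0.00564 and 9.53e-08). Of 16 receptors and partners 5 rose and 1 fell with BRD, among them FZD4 (20.7 to 124 CPM), the glypican GPC3 (3.88 to 47.0 CPM), FZD3 (68.0 to 124 CPM) and, lower, FZD8 (374 to 204 CPM), with edgeR adjusted p = 1.44e-07, 2.69e-07, 0.00107 and 0.00165. WNT4 fell from 8.07 to 0.325 CPM and WNT3 from 18.2 to 6.25 CPM, and 0 of the 9 ligand genes rose.

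Barcodes with fewer than 500 detected genes or over 10% of UMIs (unique molecules) from mitochondrial genes were dropped, which kept 4193 of 6244 barcodes at 36 h, 4511 of 6321 in the 72 h endoderm library and 5632 of 6266 in the 72 h mesoderm library. Median depths were 21152, 7680 and 7873 UMIs per cell, and 50 to 56 barcodes were shared by any 2 libraries. Each condition has 1 library, so there is no test, and the 95% intervals cover counting error only. The endoderm library had SOX17 at 122 and CER1 at 2962.6 UMI CPM, and the mesoderm library had TBXT at 326 and TBX6 at 82.1 with 0 UMIs of SOX17 (exact Poisson upper bound 0.0818), which matches their labels. At 36 h, TBXT, MIXL1 and EOMES were at 28.3, 132 and 71.2 and SOX17 had 0 UMIs.

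DKK1 separated the libraries most. Its summed UMI CPM were 1380.9 (1370.1 to 1391.8) in mesoderm, 95.6 (93.4 to 97.8) at 36 h and 6.10 (5.29 to 6.99) in endoderm. After thinning each cell to 2000 UMIs, which left out 777, 826 and 93 shallower cells at 36 h, in endoderm and in mesoderm, DKK1 was found in 86.0% of mesoderm cells (85.1% to 86.9%), 8.49% at 36 h and 0.733% in endoderm. Without thinning the share at 36 h was 22.6%. No mesoderm cluster had DKK1 in under 62.1% of its cells, so none gives the share that free RNA makes there, which was not tested. DKK4 differed less, at 163 UMI CPM in mesoderm, 127 in endoderm and 39.9 at 36 h, and it was in 22.7%, 13.8% and 4.63% of thinned cells. The bulk AA cells sorted at 72 h likewise held more DKK4 (27.4 and 28.8 CPM) than DKK1 (0.439 and 2.34 CPM), and per kb of exon DKK4 was at 30.6 and 32.2 and DKK1 at 0.199 and 1.06.

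Of the 3 single-cell libraries, SFRP1 was highest in endoderm, at 151 UMI CPM (146 to 155) against 12.4 at 36 h and 12.2 in mesoderm. It was in 22.1% of thinned endoderm cells against 2.43% and 2.09%. Bulk SFRP1 was also abundant outside endoderm, with means of 490 CPM in untreated cells at 6 h and 632 CPM with BRD alone at 24 h. SFRP2 was highest in the 36 h library, at 242 UMI CPM and in 36.7% of thinned cells, against 22.3 and 3.85% in endoderm and 32.3 and 6.68% in mesoderm. NOTUM was at 17.7 in mesoderm (798 UMIs), 3.14 in endoderm and 0.894 at 36 h. DKK3 and FRZB were low everywhere, at 1.33 to 3.79 UMI CPM, both highest in endoderm, and in 0.235% to 0.868% of thinned cells. Reads here come from the 3′ end of a transcript and were not set against bulk levels by size.

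**Figure D4:**
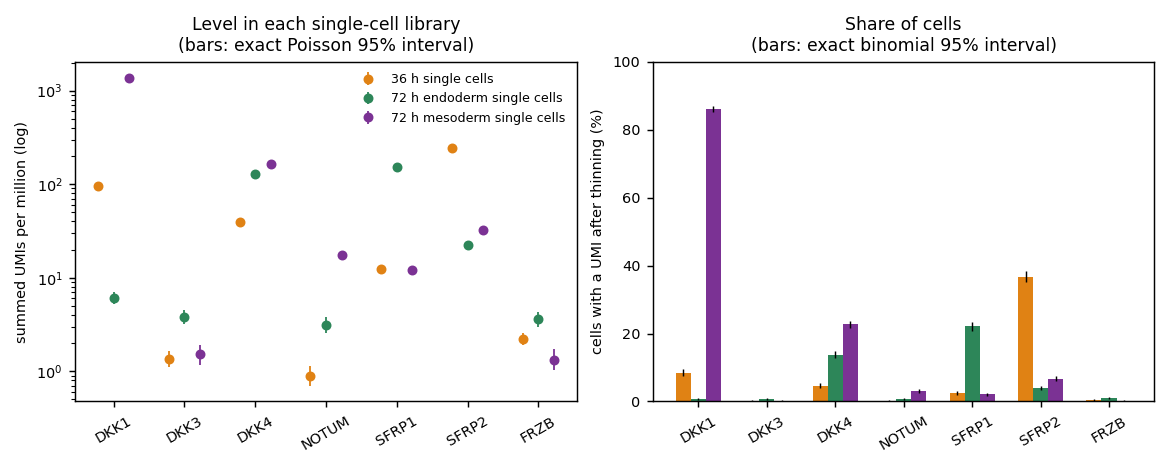
Left, summed UMI CPM of the 7 antagonists in each of 3 single-cell libraries on a log axis, with exact Poisson 95% intervals. Right, percent of cells with a UMI after thinning to 2000 UMIs, with exact binomial 95% intervals. DKK1 reaches 86.0% of cells in the mesoderm library, SFRP1 22.1% in the endoderm library and SFRP2 36.7% at 36 h.

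To see which cells held the antagonists, each library was clustered alone on its variable genes without the 7 members. Clusters are called by number and leading genes, and their values are descriptions. At 36 h, cluster 5 (220 cells, 5.25% of the library) gave 78.5% of all DKK1 UMIs and 84.7% of all DKK4 UMIs. DKK1 was at 1043.0 UMI CPM and in 67.0% of its thinned cells (60.3% to 73.2%), and DKK4 at 470 and in 42.7% (36.0% to 49.5%). After DKK4 and DKK1, its leading genes included LHX1, CER1, FGF17, CYP26A1, HAS2, GATA6 and APLNR. Found in at least 10% of its cells were 7 of 9 endoderm, 6 of 7 streak and 5 of 6 pluripotent markers. The same held for 4 of 6 paraxial mesoderm and 4 of 6 lateral and cardiac mesoderm markers, so its markers were mixed. TBX6, MESP1 and PDGFRA were at 42.3, 18.0 and 26.1 UMI CPM there, against 2.18, 0.552 and 0.920 in cluster 1. The large clusters 1 and 2 (1264 and 1162 cells, of like depth) had DKK1 in 2.69% and 3.97% of cells and DKK4 in 0.978% and 1.38%. Cluster 1, led by SOX2 and metallothioneins, had DKK1 at 15.1 UMI CPM. Among the clusters with at least 100 cells, cluster 5 also had the highest values of the scarce members. These were NOTUM (4.32 UMI CPM, 24 UMIs), FRZB (5.40, 30 UMIs) and DKK3 (3.24, 18 UMIs). Their 95% intervals overlapped those of cluster 3 (median 1788 UMIs), with 2.77 to 6.43 against 0.572 to 4.11 for NOTUM.

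SFRP2 did not share this pattern. It was in 32.1% of the cells of cluster 5 (26.0% to 38.7%) and in 33.9% and 42.6% of clusters 1 and 2, and its level was lower in cluster 5, at 177 UMI CPM (166 to 189) against 231 (225 to 236) and 277 (271 to 283). SFRP1 was in 2.29% of the cells of cluster 5, against 2.44% and 2.33% in clusters 1 and 2. Clusters 3, 6 and 7 had median depths of 1788, 1654 and 2454 UMIs, under those of the rest, and are not read further.

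Without clusters, DKK1 and DKK4 were found together in the same cells at 36 h. Of the 158 thinned cells with DKK4, 51.3% (43.2% to 59.3%) also had DKK1, against 6.41% of the cells without DKK4. DKK1 was found in 33.5% of cells with CER1 and 4.27% of those without, in 23.9% with MIXL1 and 5.02% without, and in 19.6% with EOMES and 6.96% without. It was in 2.52% of cells with SOX2 and 9.10% of those without. DKK4 showed the same order, at 20.1% with CER1 against 2.02% without, and at 1.57% with SOX2 against 4.94% without. With the Wnt targets SP5 and AXIN2, DKK1 was in 12.4% and 10.9% of cells, against 8.23% and 8.44% without them. SFRP2 was in 35.2% of cells with DKK1 and in 36.8% of those without. Doublets were not removed, and shares in thinned cells miss most low transcripts.

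In the 72 h mesoderm library DKK1 was spread over all clusters, from 62.1% of thinned cells in the small cluster 6 (119 cells, median 2096 UMIs) to 91.9% in cluster 4, with 641 to 1732.8 UMI CPM. DKK4 was uneven. It was in 30.0% of the cells of cluster 1, led by mitosis genes, and in 8.01% (6.41% to 9.86%) of those of cluster 3, led by NDUFA4L2, GALNT14, CXCR4 and NTS, where DKK1 was in 85.6%. SFRP1 was highest in cluster 3, at 28.8 UMI CPM, and 40.3% of the SFRP1 UMIs lay there. It was at 6.19 to 10.2 in clusters 1, 2, 4 and 5 and had 0 UMIs in cluster 6. A DKK1 UMI was found in 88.1% of cells with DKK4 and 85.4% of those without, shares too near the ceiling to show whether its level follows DKK4.

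In the 72 h endoderm library DKK4 and SFRP1 differed between clusters. Cluster 7 (219 cells, led by GYPB, GYPE, NPPB and HAPLN1) had DKK4 in 28% (22.1% to 34.4%) and SFRP1 in 7.80% (4.61% to 12.2%) of its thinned cells, whereas clusters 1, 3 and 5, of like depth, had DKK4 in 11.9% to 16.1% and SFRP1 in 27.8% to 29.2%. Cluster 7 held 29.1% of the 206 DKK1 UMIs and 25.5% of the 106 NOTUM UMIs in 4.85% of the cells. Cluster 4 (525 cells, median 3241 UMIs, led by CYR61, FOXD3-AS1, metallothioneins and DDIT4) had little of either, with DKK4 in 3.29% and SFRP1 in 8.71% of cells, and the most SFRP2, at 44.5 UMI CPM. Among cells with CER1, 14.7% had DKK4, against 2.43% of the cells without it.

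**Figure D5:**
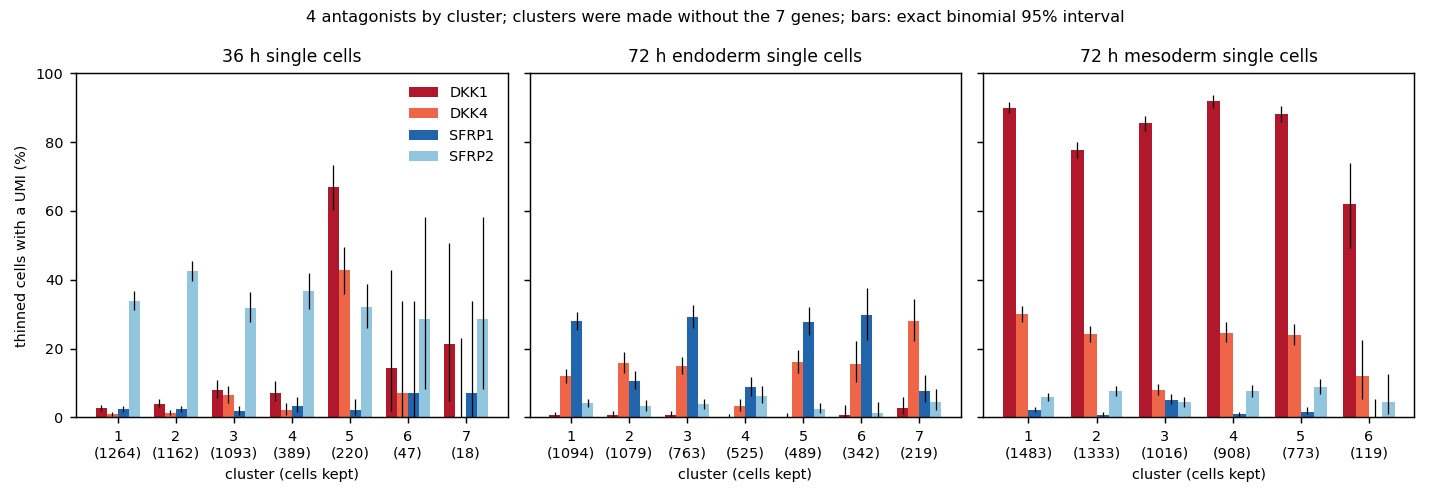
Percent of thinned cells with a UMI of DKK1, DKK4, SFRP1 and SFRP2 in each cluster of 3 single-cell libraries, with exact binomial 95% intervals and the number of cells kept below each cluster. At 36 h DKK1 and DKK4 peak in cluster 5 (67.0% and 42.7%), in endoderm SFRP1 has its highest shares in clusters 1, 3, 5 and 6 (27.8% to 29.7%), and in mesoderm DKK1 is in 62.1% to 91.9% of the cells of every cluster.

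Genes with the most similar pattern were taken as those with the highest Pearson correlation of mean log2 CPM over the 15 bulk groups, among 12903 genes with at least 5 CPM in a group. The groups share time and library series, so these are descriptions. For DKK1 they were EVX1 (r = 0.98), ARHGAP10 (0.95), APLNR and DCBLD1 (0.94) and CPXM1 (0.93). EVX1 is a homeobox factor of the streak and APLNR the apelin receptor. For DKK4 they were CNTROB (0.94), BICD2 and SNAI1 (0.93) and STIL and NWD2 (0.92). SNAI1 is a repressor that acts in the epithelial to mesenchymal transition. NOTUM was nearest to LBH and BCAR3 (0.88), DKK3 to PDE8A and TRMT2B (0.92), SFRP1 to KCTD19 and ZC3H12D (0.97), SFRP2 to ADD2 and the mitochondrial MT-ATP6 (0.99), and FRZB to KRT19 and TRABD2B (0.97), a metalloprotease that cleaves Wnt ligands. Between members, r ranged from -0.91 for SFRP2 and FRZB and -0.76 for DKK4 and SFRP1 to 0.77 for DKK3 and FRZB, with 0.67 for DKK1 and DKK4.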

How the data were processed

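The authors deposited a table of bulk expected counts per gene, of which 42.9% are not whole numbers. The submitters' processing notes name Salmon 1.4.0, edgeR 3.34.0, limma 3.48.1, Seurat 4.0.2 and GRCh38, without saying which step used which. The single-cell matrices hold deposited UMI counts from Cell Ranger 3.0.2, per the file headers. The antagonists and gene lists were chosen with earlier results of these data known.

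Bulk values were rounded and fitted per time point with edgeR 4.0.16 (TMM, quasi-likelihood test, Benjamini-Hochberg adjustment over all genes tested, threshold 0.05) in R 4.3.3, after edgeR's filter on low counts and with the BRD-alone libraries in the fit of their time. This fit was tried on simulated data with the same spread for every gene and changes only in well-counted genes. That trial does not cover antagonists with few counts. DESeq2 1.42.0, other scaling, no filter, a replicate block, other sets of libraries and leaving out each library were the alternatives. A gene of another list was named only if among the 4 smallest adjusted p-values of its list and comparison; the 5 genes most like each antagonist were named by correlation.

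Barcodes under 500 genes or over 10% mitochondrial UMIs were dropped; cells were thinned to 2000 UMIs for shares and clustered with scanpy 1.11.5 (30 components, 15 neighbours, resolution 0.5). Doublets were not removed. Intervals are exact Poisson or binomial at 95%. PCR-made libraries make these intervals and limits cover counting error only.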

Additional observations from a re-analysis of the deposited data

Results flagged for a closer look

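The effect of Activin A over CHIR differed between 24 h and 6 h for 3 antagonists, by a test of the difference itself (edgeR interaction term). The difference of the log2 differences, 24 h minus 6 h, was 4.63 for DKK4 (adjusted p = 1.41e-05), 1.55 for DKK3 (adjusted p = 0.0428) and -0.69 for SFRP1 (adjusted p = 0.0169). The DKK4 value kept its call in every fit without 1 library, whereas the DKK3 and SFRP1 calls did not.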

How the results depend on the processing

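Among differences of antagonists called in at least 1 fit of a comparison, no direction reversed under any alternative. The calls of DKK1 and DKK4 at 72 h against AA, and at 24 h between AA+CHIR and CHIR or either compound arm, held in all alternatives run for them. With 1 library left out, the number of antagonists called ranged from 0 to 1 for CHIR against untreated at 6 h (2 with all libraries), 0 to 0 for AA+CHIR against CHIR at 6 h (1), 1 to 2 for JNJ+CHIR against CHIR at 24 h (2), 2 to 3 for BRD+CHIR against AA+CHIR at 24 h (4), 1 to 2 for BRD+CHIR against JNJ+CHIR at 24 h (2) and 1 to 4 for the effect of AA at 24 h against 6 h (3). In 1 fit over all 30 libraries, 1 antagonist was called for CHIR against untreated at 6 h, 1 for JNJ+CHIR against CHIR and 1 for BRD+CHIR against JNJ+CHIR at 24 h. FRZB was called for the effect of AA at 24 h against 6 h without 24 h CHIR replicate 2 (6.94, edgeR adjusted p = 0.0459). The cause was not tested.

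With a replicate block, 1 antagonist in place of 2 was called for JNJ+CHIR against CHIR at 24 h (DKK1, edgeR adjusted p = 0.0580), and no other count of antagonists changed. Replicate differences of same-numbered libraries correlated between groups at -0.09 to 0.06 at 6 h, -0.04 to 0.04 at 24 h and -0.24 to 0.26 at 72 h, so the numbers were not taken as pairs.

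Over all genes, DESeq2 called 729 where edgeR called 445 (AA+CHIR against CHIR, 24 h), 708 against 428 and 1183 against 728 (BRD+CHIR and JNJ+CHIR against AA+CHIR), 146 against 24 (JNJ+CHIR against CHIR), 138 against 28 (BRD+CHIR against JNJ+CHIR), 550 against 298 (24 h against 6 h), and 9 and 12 against 3 for the JNJ comparisons at 6 h. The fit over all libraries called 1157, 1060, 1822, 286 and 256 in the first 5 of these, and 186 and 91 at 6 h against 441 (CHIR) and 222 (AA+CHIR). Shares of cells moved with depth, such as DKK1 at 36 h (5.41% at 1000 UMIs, 22.6% unthinned), but DKK1, DKK4 and NOTUM had their highest share in mesoderm in all 3 alternatives. At 72 h DKK4 had 0 to 12 counts per library in the compound arms, against 187 and 123 in AA libraries of like depth, and differences between those arms have wide intervals.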
